A study of Mus musculus with 8 samples.

Results

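The collagen chains were read from the gene table of 8 mouse heart libraries as the protein-coding rows whose symbol has the form Col, a number, a and a second number. The rule uses names alone and no measured value. It found 42 chains among 23045 genes, 15157 of them protein-coding, and these were divided into 11 fibrillar chains, 6 chains of the basement membrane and 25 other chains.

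The WT group holds 4 heart samples labelled Mettl3 lox/lox, and the Mettl3 KO group 4 heart samples labelled Mettl3 lox/lox with αMHC-MerCreMer pos. Both groups carry the floxed Mettl3 alleles, and per the study's methods mice were injected with tamoxifen at 100 µg per g body weight on 7 consecutive days at an age of 10 to 16 weeks. The time from injection to sampling is not given in the sources used here. αMHC-MerCreMer is a tamoxifen-inducible Cre recombinase driven by the promoter of a cardiomyocyte myosin gene, so recombination is directed to cardiomyocytes, while most collagen of the heart is made by other cells. The WT group lacks the transgene, so the presence of the Cre and the loss of Mettl3 cannot be told apart. Mettl3, which encodes the catalytic subunit of the m6A RNA methyltransferase, was at 105, 133, 118 and 107 normalized read counts in WT and at 74, 68, 69 and 78 in Mettl3 KO (log2 fold change -0.67, SE 0.10, adjusted p = 0.000184), with no overlap between the groups.

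Collagens are secreted proteins of the extracellular matrix in which 3 chains wind around each other as a helix. This helix needs a recurring glycine, in the residue pattern written as Gly-X-Y. Fibrillar collagens form the cable-like fibres that carry tension in the heart wall, type IV collagen forms the sheet of the basement membrane that surrounds each cardiomyocyte and capillary, and the remaining types decorate fibres, form beaded filaments or small networks, or stay in the cell membrane. In the heart, fibroblasts are the main source of types I and III, whereas endothelial cells, cardiomyocytes and mural cells also make type IV.

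The coding sequences show a part of this division, that between fibrillar and type IV chains. A run was defined as at least 6 consecutive codon triplets that start with a glycine codon (GGN), counted in the longest coding transcript of each chain in GENCODE M21. All 42 chains had at least one run. In the fibrillar chains of types I, II, III, V and XI the longest run held 337 to 344 triplets without a break, and it held 216 in Col24a1 and 217 in Col27a1. The type IV chains were instead broken into 22 to 27 runs, of which the longest held 39 to 66 triplets. Col8a1, of a short-chain network collagen, had 8 runs with 60 triplets at most, and the fibril-associated chains Col12a1 and Col14a1 had 4 runs each that took up 7.64% and 13.0% of their codons. The other chains shared no single pattern. Col7a1 and Col16a1 had 18 runs each, and the longest run held 113 triplets in Col9a2, Col9a3 and Col22a1. The following windows of 30 codons show the start of the longest run in Col1a1, Col3a1 and Col8a1, and a break after the longest run in Col4a1 and Col4a4. They were chosen because the former chains and Col4a4 differed between the groups and Col4a1 was the most abundant chain. Capitals mark the glycine codons of the runs.
Col1a1: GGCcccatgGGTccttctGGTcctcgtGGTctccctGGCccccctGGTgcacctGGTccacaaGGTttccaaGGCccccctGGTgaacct
Col3a1: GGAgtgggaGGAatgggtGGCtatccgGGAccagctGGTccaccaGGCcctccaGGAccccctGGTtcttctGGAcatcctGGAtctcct
Col8a1: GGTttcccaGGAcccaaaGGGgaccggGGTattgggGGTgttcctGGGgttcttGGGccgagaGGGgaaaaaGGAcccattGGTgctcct
Col4a1: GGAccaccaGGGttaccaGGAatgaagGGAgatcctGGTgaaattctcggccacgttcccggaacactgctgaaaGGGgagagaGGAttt
Col4a4: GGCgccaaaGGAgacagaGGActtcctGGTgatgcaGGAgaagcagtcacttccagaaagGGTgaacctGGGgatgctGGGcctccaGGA

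The Col1a1 window covers codons 168 to 197 and joins exons 6 to 8 on the plus strand (chr11:94939451-94939939, mm10, introns included in the span). The Col3a1 window covers codons 164 to 193 in exons 5 and 6 (plus strand, chr1:45323762-45325413), and the Col8a1 window codons 355 to 384 within exon 4 (minus strand, chr16:57627994-57628083). All 10 triplets of these windows keep the glycine. In the Col4a1 window, codons 148 to 177 in exons 8 and 9 (minus strand, chr8:11244507-11245084), the run stops before codon 163 and 7 glycine codons belong to a run. In the Col4a4 window, codons 943 to 972 in exons 31 and 32 (minus strand, chr1:82487537-82489020), the run stops before codon 958 and 9 glycine codons belong to a run.

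The values analysed are read counts that the authors normalized and rounded to whole numbers. They summed to between 2839589 and 2916986 per library, and the reads behind them were recovered as 2631904 to 3061268 per library, so that 3 reads correspond to 2.78 to 3.33 normalized read counts. Of the 42 chains, 40 had a mean of at least 1 and were tested, 29 of these with a mean of at least 10 in a group, and Col6a4 and Col19a1 were below 1. The labels give the tissue as heart, and the region sampled is not given in the sources used here. In such bulk samples, fewer cells of a type and less RNA per cell cannot be told apart. The libraries differed in atrial tissue markers, and a difference in the tissue sampled was not tested. The mean log2(value + 1) of Myl7, Myl4, Sln and Bmp10 was 3.82, 3.53, 1.04 and 3.43 in WT, 3.72 in Mettl3 KO replicate 1 and 6.72, 6.72 and 7.49 in replicates 2 to 4, and results are therefore also given with this index as a covariate and for Mettl3 KO replicate 1 alone.

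Collagen chains were higher in Mettl3 KO hearts or did not pass the test, and none was called lower. An adjusted p under 0.05 was reached by 17 of the 40 tested chains (42.5%), all higher, against 7.91% of all genes in either direction, 4.72% in this direction and 3.19% in the other. The log2 fold change was above 0 in 33 of the 40 chains, against 9789 of all 20313 genes, and its median was 0.39 over the chains and -0.01 over all genes. The 33 include Col6a5, Col2a1 and Col9a2, with WT means of 0.75, 0.75 and 0.5. These reached the minimum mean of 1 only through Mettl3 KO, so the filter favoured their positive sign. Col6a4 and Col19a1, which were not tested, had lower means in Mettl3 KO (0 and 0.5) than in WT (0.75 in both). The groups did not overlap, with Mettl3 KO higher, in 16 chains, against 6.46% of all genes. By class, 5 of 11 fibrillar, 3 of 6 basement membrane and 9 of 23 tested other chains were called, with median log2 fold changes of 0.41, 0.30 and 0.27. With the atrial index as a covariate 7 chains passed, 6 of them among the 17. The shares of all genes above belong to the fit without the index, so they cannot be set beside this count. Mettl3 KO replicate 1 alone was above every WT library in 24 of the 40 tested chains (60.0%), against 23.0% of all genes, with a median log2 difference of 0.34 from the WT mean. All 17 called chains were among them, but that library helped to choose them, and 93.9% of all genes called higher shared this.

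**Figure D1:**
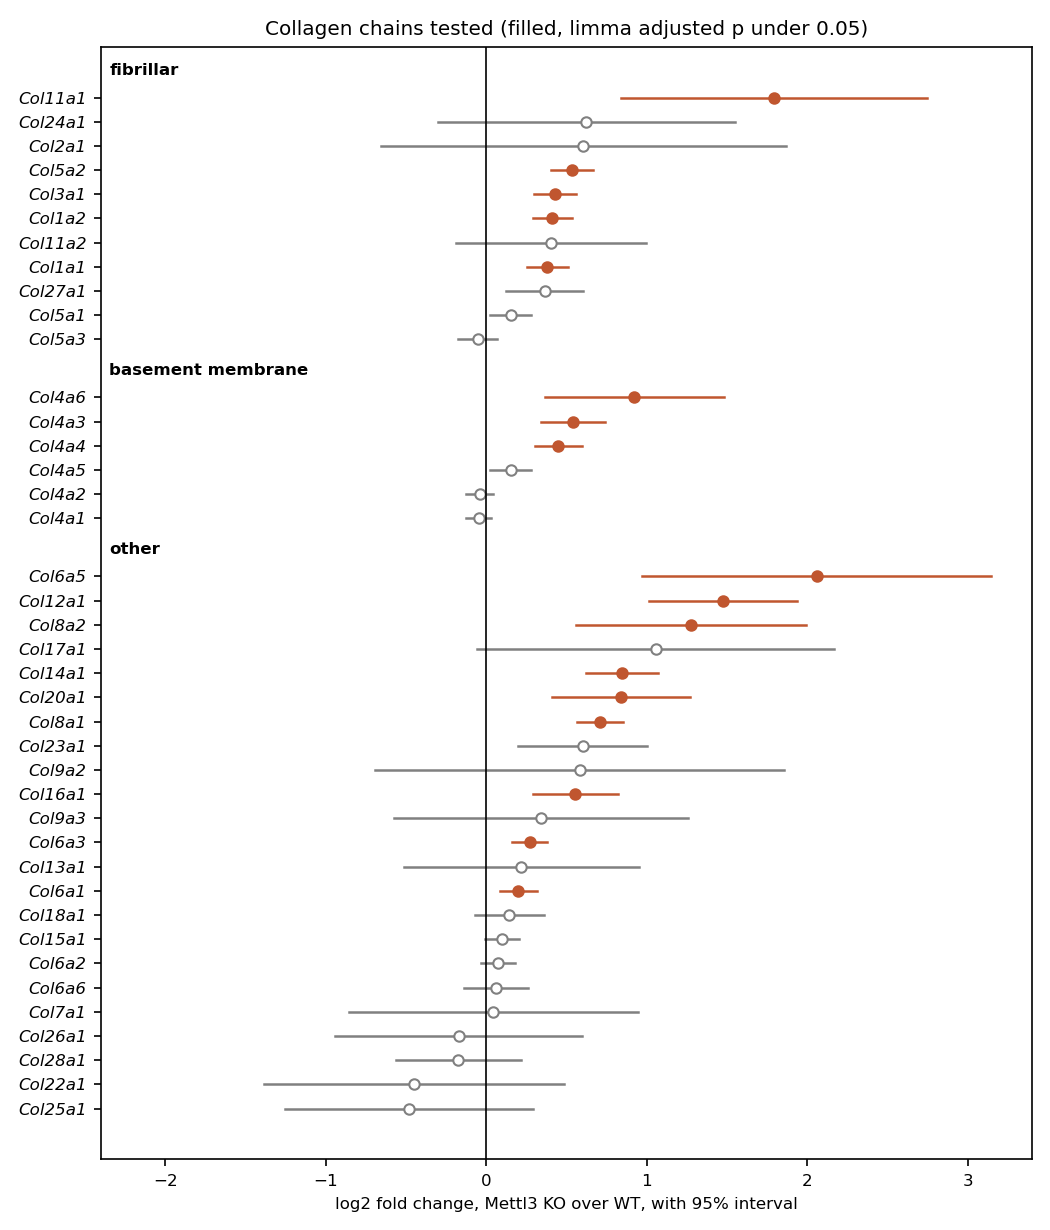
Log2 fold change of Mettl3 KO over WT (x axis, points) with the 95% interval of limma (lines) for the 40 tested chains, by class and in order of size. The 17 filled points have an adjusted p under 0.05 and all lie above 0, while the intervals of low chains such as Col2a1 and Col9a2 span more than 2 log2 units.

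Summed over the chains, the collagens took 0.380% of the WT libraries and 0.434% of the Mettl3 KO libraries. The sum was 11338, 10815, 10574 and 10755 normalized read counts in WT and 12892, 11661, 12997 and 12469 in Mettl3 KO, so every Mettl3 KO library lay above every WT library, at a ratio of 1.15 between the means. Nearly all of this came from outside the basement membrane. The fibrillar chains summed to 3227 ± 161 (SD, n = 4) in WT and 4123 ± 312 in Mettl3 KO (ratio 1.28), the other chains to 3309 ± 144 and 4021 ± 184 (ratio 1.22) and the basement membrane chains to 4335 ± 149 and 4360 ± 140 (ratio 1.01). No test was run on the sums.

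Types I and III make up the load-bearing fibres, and their chains rose together. Type I collagen is built from Col1a1 and Col1a2 chains. Col1a1 (chr11:94827050-94843868, mm39) was at 588, 499, 549 and 505 normalized read counts in WT and at 716, 621, 756 and 696 in Mettl3 KO (log2 fold change 0.38, SE 0.06, adjusted p = 0.000296). Col1a2 was at 608, 556, 557 and 518 in WT and at 738, 667, 808 and 770 in Mettl3 KO (0.41, SE 0.06, adjusted p = 7.58e-05). In both chains the groups did not overlap and Mettl3 KO replicate 2 was the lowest of its group. Col3a1 (chr1:45350698-45388866, mm39), the single chain of type III, was the highest fibrillar chain, at 1041, 915, 973 and 967 in WT and at 1423, 1098, 1435 and 1301 in Mettl3 KO (0.43, SE 0.06, adjusted p = 0.000123). Its lowest Mettl3 KO library, replicate 2, still exceeded the highest WT library. Per kb of exon, Col3a1 stood at 99.2 ± 5.27 and 134 ± 15.9, Col1a1 at 81.6 ± 6.34 and 106 ± 8.63, and Col1a2 at 45.0 ± 2.97 and 60.0 ± 4.81 normalized read counts in WT and Mettl3 KO. Exon length here is the union of all annotated exons of a gene, 6563 bases for Col1a1 and 12426 for Col1a2. Comparisons per kb between chains therefore depend on the annotation.

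Type V collagen lies inside fibres of types I and III and limits their diameter. Col5a2, the neighbour of Col3a1 on chromosome 1 with 24614 bases between the ends of both genes, was at 331, 293, 286 and 299 in WT and at 412, 412, 463 and 466 in Mettl3 KO (0.53, SE 0.06, adjusted p = 8.19e-06), without overlap. Col5a1 was at 490, 423, 497 and 467 in WT and at 575, 478, 523 and 512 in Mettl3 KO, overlapped and did not pass (0.15, adjusted p = 0.144). Both passed with the atrial index as a covariate, Col5a1 at 0.31 (adjusted p = 0.0347) and Col5a2 at 0.40 (adjusted p = 0.00828), and the difference between these chains was not tested. Col5a3 was at 296, 314, 324 and 299 in WT and at 287, 306, 299 and 296 in Mettl3 KO (-0.05, 95% interval -0.17 to 0.07, adjusted p = 0.692).

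Among the scarce fibrillar chains, Col11a1, of the type XI collagen best known from cartilage, was called higher from few reads. It was at 2, 1, 0 and 4 in WT and at 10, 6, 6 and 7 in Mettl3 KO (1.79, SE 0.46, adjusted p = 0.0165), which the recovered reads put at 7 against 29 reads, a ratio of 4.29 (exact Clopper-Pearson 95% interval 1.84 to 11.6, counting error only). It did not pass with the atrial index (1.38, adjusted p = 0.341), nor after leaving out Mettl3 KO replicate 4 (0.0504), WT replicate 2 (0.0502) or WT replicate 3 (0.0546). Its partner Col11a2 was at 12, 16, 12 and 8 in WT and at 14, 10, 19 and 23 in Mettl3 KO (0.40, adjusted p = 0.479). Col27a1, a fibrillar chain with a shorter helix, was at 62, 54, 67 and 65 in WT and at 91, 77, 77 and 75 in Mettl3 KO. These groups did not overlap, but the adjusted p of 0.0545 missed the threshold (0.36, SE 0.11). Col2a1 and Col24a1 stayed below 8 in every library and did not pass.

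**Figure D2:**
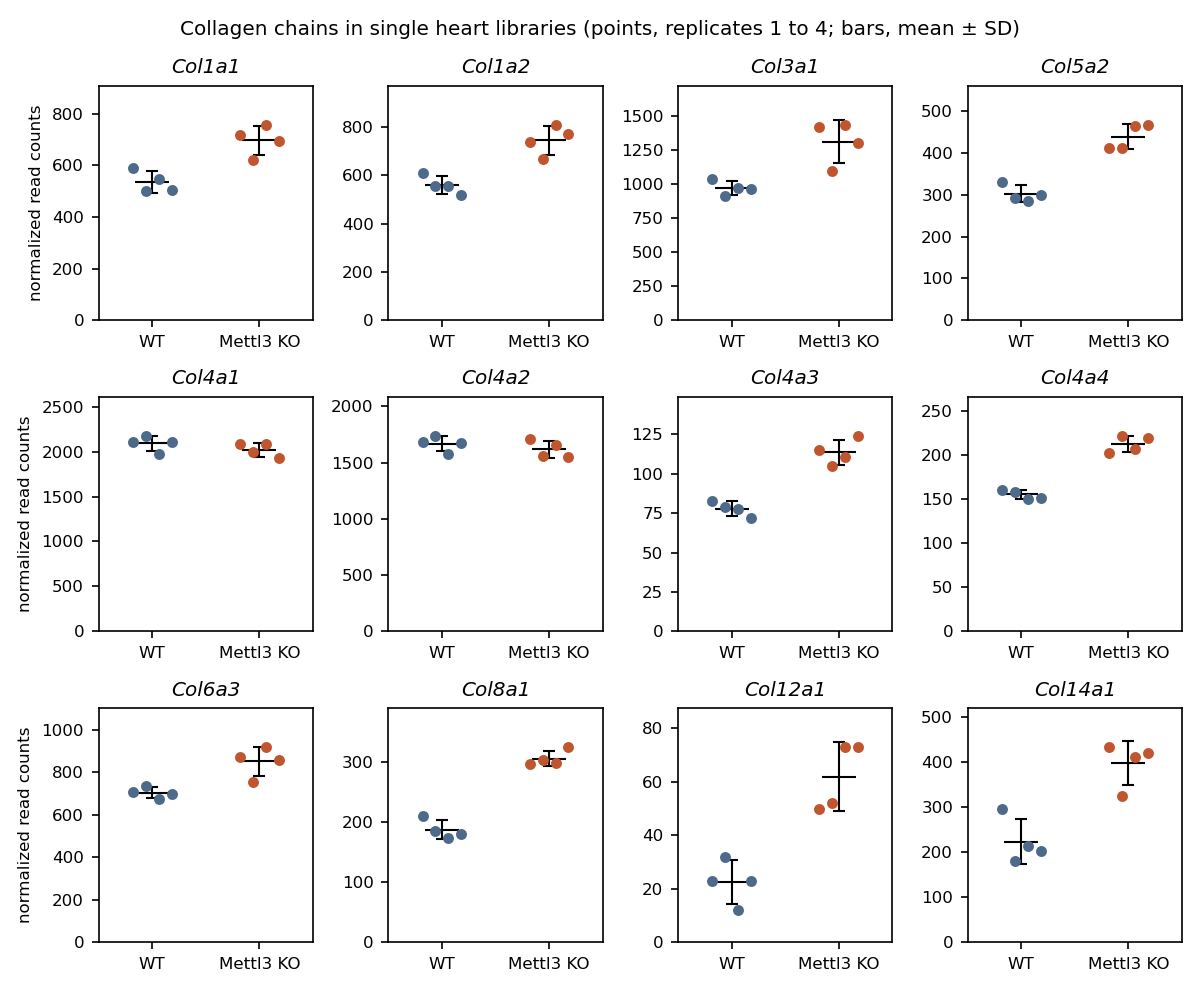
Normalized read counts (y axes, starting at 0) of 12 collagen chains in each WT (blue) and Mettl3 KO (orange) library, with the mean and SD of 4 libraries in black. The groups overlap in Col4a1 and Col4a2 and are separate in the other 10 chains, with the highest ratio of means, 2.76, in Col12a1.

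The basement membrane chains differed among themselves in whether they passed. The 6 type IV genes lie as 3 head-to-head pairs, with Col4a1 and Col4a2 overlapping at their starts on chromosome 8, Col4a3 and Col4a4 71 bases apart on chromosome 1, and Col4a5 and Col4a6 1308 bases apart on the X chromosome (mm39). The first pair encodes the network found in nearly all basement membranes. The other chains form the networks that the kidney filter, the lung and some smooth muscle are known for.

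Col4a1 was at 2102, 2172, 1974 and 2110 normalized read counts in WT and at 2083, 1995, 2082 and 1923 in Mettl3 KO (log2 fold change -0.05, 95% interval -0.13 to 0.03, adjusted p = 0.546). Col4a2 was at 1680, 1737, 1576 and 1677 in WT and at 1707, 1562, 1657 and 1553 in Mettl3 KO (-0.04, interval -0.13 to 0.04, adjusted p = 0.639). The groups overlapped in both, and both intervals ended below the changes of Col1a1 and Col3a1. They were the highest collagen chains per kb of exon, at 280 ± 11.1 for Col4a1 and 252 ± 10.1 for Col4a2 in WT and 271 ± 10.3 and 245 ± 11.3 in Mettl3 KO. The next in WT per kb, Col15a1 and Col6a1, were both at 122, an order that depends on the annotated exon lengths. In normalized read counts without this scaling, the next in WT was Col3a1, at 974.

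Col4a3 and Col4a4 were far lower but rose. Col4a3 was at 83, 79, 78 and 72 in WT and at 115, 105, 111 and 124 in Mettl3 KO (0.54, SE 0.10, adjusted p = 0.000859). Col4a4 was at 161, 159, 151 and 152 in WT and at 203, 222, 207 and 220 in Mettl3 KO (0.45, SE 0.07, adjusted p = 0.000217). Neither overlapped, and together both chains were 1.40 times as high in Mettl3 KO, while Col4a1 and Col4a2 together were 0.969 times as high. With the atrial index as a covariate their log2 fold changes were 0.52 (adjusted p = 0.0507) and 0.36 (adjusted p = 0.0551), and in Mettl3 KO replicate 1 alone the differences from the WT mean were 0.56 and 0.38.

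In the X-linked pair, Col4a6 was low, at 14, 7, 12 and 15 in WT and at 25, 16, 21 and 32 in Mettl3 KO (0.92, SE 0.27, adjusted p = 0.0364). It did not overlap, but leaving out WT replicate 2 (adjusted p = 0.129) or 3 (0.0579), or Mettl3 KO replicate 1 (0.0715), 3 (0.0799) or 4 (0.150), ended the call. So did the atrial index as a covariate, at a fold change close to that of the main fit (0.95, adjusted p = 0.248). Col4a5 was at 347, 320, 334 and 327 in WT and at 353, 334, 398 and 393 in Mettl3 KO and did not pass (0.15, adjusted p = 0.163).

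Type VI collagen forms beaded filaments that link cells to the fibres, from Col6a1, Col6a2 and either Col6a3 or a related long chain. Col6a3 rose, from 707, 735, 675 and 697 in WT to 870, 755, 918 and 859 in Mettl3 KO (0.27, SE 0.05, adjusted p = 0.00204), without overlap. The value with the atrial index was 0.26 (adjusted p = 0.0682). Col6a1 was at 595, 510, 506 and 522 in WT and at 635, 602, 622 and 586 in Mettl3 KO. The groups overlapped through WT replicate 1, and the change was small (0.20, SE 0.05, adjusted p = 0.0257). Leaving out any single library other than WT replicate 1 and Mettl3 KO replicate 4 ended this call, at adjusted p between 0.0556 and 0.0925, and it did not pass with the atrial index, where the log2 fold change was again 0.20 (adjusted p = 0.213). Col6a2 was at 435, 414, 421 and 422 in WT and at 456, 436, 428 and 459 in Mettl3 KO (0.07, adjusted p = 0.481).

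Of the long chains that can stand in for Col6a3, Col6a6 was at 164, 159, 172 and 157 in WT and at 134, 190, 193 and 169 in Mettl3 KO (0.06, adjusted p = 0.806). Its Mettl3 KO libraries lay on both sides of the WT range, with replicate 1 the lowest of all 8. Col6a5 was at 0, 2, 1 and 0 in WT and at 7, 4, 14 and 2 in Mettl3 KO (2.06, SE 0.52, adjusted p = 0.0162). That is 3 against 25 recovered reads, a ratio of 8.63 (interval 2.63 to 44.7), of which replicate 3 held the most. The call was lost without Mettl3 KO replicate 3 (adjusted p = 0.103), WT replicate 1 (0.0566) or WT replicate 4 (0.0597), with voom on the recovered reads (0.0541) and with the atrial index (2.72, adjusted p = 0.0592). Col6a5 had a mean of 0.75 in WT and reached the minimum mean of 1 only through Mettl3 KO, where it was high. With no filter on low values, the 17 called chains, Col6a5 included, were called again. Col6a4 was at 0, 0, 2 and 1 in WT and at 0 in all Mettl3 KO libraries, where 3 reads in a library would have given up to 3.33.

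The chains that attach to the surface of fibres (fibril-associated collagens with interrupted helices, FACIT) held the largest changes among chains with a mean of at least 20 in both groups. Col12a1, a large FACIT chain of dense connective tissue, was at 23, 32, 12 and 23 in WT and at 50, 52, 73 and 73 in Mettl3 KO (1.48, SE 0.22, adjusted p = 0.000143). Replicates 3 and 4 of Mettl3 KO were higher than replicates 1 and 2, and all 4 exceeded WT. With the atrial index the value was 0.75 (adjusted p = 0.159), and in Mettl3 KO replicate 1 alone the difference was 1.19. Col14a1, which is expressed by fibroblasts and binds fibres of type I, was at 295, 181, 213 and 203 in WT and at 433, 325, 412 and 420 in Mettl3 KO (0.85, SE 0.11, adjusted p = 2.29e-05), without overlap.

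Col16a1 was at 51, 44, 44 and 59 in WT and at 72, 65, 77 and 77 in Mettl3 KO (0.55, SE 0.13, adjusted p = 0.00799), and at 0.44 with the atrial index (adjusted p = 0.257). Col20a1 was at 17, 13, 19 and 13 in WT and at 28, 31, 29 and 25 in Mettl3 KO (0.84, SE 0.21, adjusted p = 0.0131). Neither overlapped, and the call of Col20a1 was lost without Mettl3 KO replicate 2 (0.80, adjusted p = 0.0504) and with the atrial index (1.026, adjusted p = 0.0799). Of the 7 tested FACIT chains these 4 passed, and Col9a2, Col9a3 and Col22a1 did not.

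Type VIII collagen forms hexagonal networks under endothelia and in vessel walls. Its chain Col8a1 had the smallest adjusted p of all chains, with 209, 185, 174 and 179 in WT and at 296, 302, 298 and 324 in Mettl3 KO (0.71, SE 0.07, adjusted p = 8.77e-07). The spread within Mettl3 KO was narrow (305 ± 12.9, SD, n = 4) beside a WT level of 187 ± 15.5. Its partner Col8a2 was at 12, 5, 5 and 6 in WT and at 25, 8, 19 and 23 in Mettl3 KO (1.27, SE 0.35, adjusted p = 0.0241). Here WT replicate 1 lay above Mettl3 KO replicate 2, and the call was lost with the atrial index (1.31, adjusted p = 0.204) and without any library but WT replicate 1 and Mettl3 KO replicate 2 (adjusted p 0.0616 to 0.103).

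No other family held a called chain. The multiplexins Col15a1 and Col18a1, which sit at basement membranes and carry an endostatin-like domain at their end, were at 774 ± 17.7 and 106 ± 11.6 in WT and at 829 ± 65.1 and 117 ± 14.5 in Mettl3 KO (log2 fold changes 0.10 and 0.14). The transmembrane chain Col23a1 was at 26, 19, 17 and 18 in WT and at 31, 27, 32 and 32 in Mettl3 KO. It did not overlap, and its adjusted p was 0.0586 (0.60, SE 0.19). It passed when genes with a mean under 10 were left out (adjusted p = 0.0435), as did Col27a1 (0.0442), and without WT replicate 1 (0.0352). Col13a1, Col17a1 and Col25a1 in the membrane and Col7a1, Col26a1 and Col28a1 overlapped between the groups.

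The ratio of chains within a library does not depend on scaling between libraries, and 7 ratios were compared with two-sided exact permutation tests, for which 0.0286 is the smallest p that 4 against 4 samples allow. Of 5 ratios between neighbouring genes or partner chains and 2 between abundant chains, none passed after adjustment, which does not show that they were equal. Col1a1 over Col1a2 was 0.956 ± 0.0399 in WT and 0.935 ± 0.0272 in Mettl3 KO (exact p = 0.429, adjusted over the 7 ratios 0.5). Per kb of exon it was 1.81 ± 0.0755 and 1.77 ± 0.0515. These higher values come from the longer annotated exon union of Col1a2 and do not measure the proportion of the chains. The ratio of Col4a1 to Col4a2 varied least, at 1.251, 1.250, 1.252 and 1.258 in WT and at 1.220, 1.277, 1.256 and 1.238 in Mettl3 KO (exact p = 0.686). Its log2 SD was 0.00404 in WT and 0.0282 in Mettl3 KO. At these read numbers counting error alone would exceed the WT value, and the difference in spread between the groups was not tested. Col4a3 over Col4a4 was 0.504 ± 0.0200 in WT and 0.537 ± 0.0433 in Mettl3 KO (exact p = 0.257), Col3a1 over Col5a2 3.22 ± 0.126 and 3.00 ± 0.351 (exact p = 0.286), and Col1a1 over Col3a1 0.550 ± 0.0201 and 0.533 ± 0.0258 (exact p = 0.371).

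Col6a1 over Col6a2 was 1.26 ± 0.0736 in WT and 1.37 ± 0.0731 in Mettl3 KO (exact p = 0.0571, adjusted 0.2). Col1a1 over Col4a1, a pair of abundant chains of different types that was chosen with their values known, was 0.280, 0.230, 0.278 and 0.240 in WT and at 0.344, 0.312, 0.363 and 0.362 in Mettl3 KO. All 4 Mettl3 KO libraries exceeded all WT libraries, the log2 difference was 0.43, and the exact p of 0.0286 was the smallest possible, at 0.2 after adjustment over the 7 ratios.

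Promoter windows from RefSeq (GRCm38.p6), 250 bases before to 50 bases after a gene's start, were found for 33 of the 42 chains, as 35 windows. They were searched on both strands for the letters of 3 common promoter elements, none of which contains another. The TATA box, TATAAA, was in 4 of the 35 collagen windows (11.4%) and in 13.6% of all 32851 windows. The CCAAT box, CCAAT, was in 12 (34.3%) and in 37.4%. The GC box, GGGCGG, was in 23 (65.7%) and in 35.7%. Windows of Col1a2 and Col3a1, which rose, and of Col4a2, which did not pass, are shown as examples, with matches in capitals (on either strand).
Col1a2: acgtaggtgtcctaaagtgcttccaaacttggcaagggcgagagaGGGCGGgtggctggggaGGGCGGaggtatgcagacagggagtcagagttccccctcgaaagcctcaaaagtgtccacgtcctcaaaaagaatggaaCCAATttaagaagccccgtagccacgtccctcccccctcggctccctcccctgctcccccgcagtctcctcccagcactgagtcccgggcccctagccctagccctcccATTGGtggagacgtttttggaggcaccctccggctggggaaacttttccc
Col3a1: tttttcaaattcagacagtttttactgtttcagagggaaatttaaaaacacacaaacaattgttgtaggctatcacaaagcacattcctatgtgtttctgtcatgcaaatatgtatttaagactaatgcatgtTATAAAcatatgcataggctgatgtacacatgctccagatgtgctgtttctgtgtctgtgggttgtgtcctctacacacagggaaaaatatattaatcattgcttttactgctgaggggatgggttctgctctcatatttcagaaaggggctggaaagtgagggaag
Col4a2: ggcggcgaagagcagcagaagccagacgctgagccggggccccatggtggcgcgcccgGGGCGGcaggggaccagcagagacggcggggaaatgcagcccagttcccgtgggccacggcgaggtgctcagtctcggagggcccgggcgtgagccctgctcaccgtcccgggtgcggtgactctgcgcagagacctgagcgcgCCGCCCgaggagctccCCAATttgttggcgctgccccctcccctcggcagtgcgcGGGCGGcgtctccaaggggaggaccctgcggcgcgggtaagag

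The Col1a2 window (plus strand, chr6:4505368-4505667) held 2 CCAAT and 2 GGGCGG matches at 61.0% G and C. The Col3a1 window (plus strand, chr1:45311288-45311587) held 1 TATAAA match and neither other motif, at 37.7% G and C. The Col4a2 window (plus strand, chr8:11312555-11312854) held 1 CCAAT and 3 GGGCGG matches at 73.7% G and C, and it shares 78 bases with the window of Col4a1 on the other strand. A match of these letters is a description of the window and was not tested as a site.

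The machinery that makes and deposits collagen changed in part. Of 36 genes for hydroxylation, folding, export, propeptide removal and crosslinking, 9 rose and 2 fell, against 4.72% and 3.19% of all genes, at a median log2 fold change of 0.05. With a library left out 8 to 10 of them were called, and with the atrial index as a covariate 5 genes were called higher and 3 lower, 7 of these 8 shared with the main fit. The shares of all genes given here are those of the main fit. The crosslinking enzyme Lox, which joins collagen fibres by oxidising lysines, changed most among those that rose, from 29, 31, 36 and 31 in WT to 81, 62, 75 and 73 in Mettl3 KO (1.17, SE 0.14, adjusted p = 8.12e-06). Its relative Loxl1 rose by 0.42 (SE 0.08, adjusted p = 0.00257), or 0.32 with the atrial index (adjusted p = 0.201), and Loxl2, Loxl3 and Loxl4 did not pass. Of the enzymes that trim the ends of procollagen, Adamts2 rose by 0.48 (adjusted p = 0.000913), Pcolce, an enhancer of Bmp1, by 0.41 (adjusted p = 0.00197) and Bmp1 by 0.30 (adjusted p = 0.0230). The groups of Bmp1 overlapped, and its call was lost without any library but WT replicate 3 and Mettl3 KO replicate 4 (adjusted p 0.0513 to 0.0886). Tll2, a relative of Bmp1, was at 10, 9, 7 and 9 in WT and at 0, 3, 3 and 4 in Mettl3 KO (-1.70, SE 0.45, adjusted p = 0.0202), a call lost without WT replicate 1, 2 or 4 (adjusted p 0.0611 to 0.0664).

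In the endoplasmic reticulum, the prolyl 3-hydroxylases P3h1 and P3h2 rose by 0.52 and 0.51 (adjusted p = 0.00455 and 0.00400) and the lysyl hydroxylase Plod2 by 0.29 (adjusted p = 0.0113). P3h1 (0.56, adjusted p = 0.0798) and P3h2 (0.39, adjusted p = 0.222) did not pass with the atrial index, nor Plod2 without WT replicate 2 (0.24, adjusted p = 0.0580). The main prolyl 4-hydroxylase subunits P4ha1 and P4hb, at -0.01 and -0.09, and the collagen chaperone Serpinh1, at 0.01, did not pass. Of the export factors that load procollagen into carriers, Mia3 rose by 0.15 (adjusted p = 0.0490) and Mia2 fell, from 516, 561, 530 and 543 in WT to 429, 462, 472 and 470 in Mettl3 KO (-0.23, SE 0.05, adjusted p = 0.00599). The call of Mia3 was lost with the replicate block (adjusted p = 0.0686), with no filter, other scalings or voom (0.0522 to 0.0802), with the atrial index (0.426) and without any library but WT replicate 2 and Mettl3 KO replicate 1 (0.0792 to 0.146). Of 10 genes for collagen receptors and uptake, 3 passed and all rose, against 4.72% of all genes in this direction. The integrin subunit Itga1 (-0.14, adjusted p = 0.0865) was called lower with upper quartile scaling, voom, the replicate block or Mettl3 KO replicate 1 left out (adjusted p 0.0133 to 0.0471). The receptor kinase Ddr1 rose by 0.61 (SE 0.09, adjusted p = 0.000210), the integrin subunit Itga11 by 0.68 (SE 0.19, adjusted p = 0.0271, lost without any library but WT replicates 1 and 3 and Mettl3 KO replicate 3) and the uptake receptor Mrc2 by 0.36 (SE 0.08, adjusted p = 0.00466), while Ddr2 was at 451 ± 41.0 in WT and 450 ± 20.4 in Mettl3 KO.

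Beside the chains, most fibroblast markers were called higher, where all genes have a share of 4.72% called higher and 3.19% called lower. Of 8 resting fibroblast markers 7 were called higher, all but Tcf21, and their sum ran from 2889 to 3173 in WT and from 3673 to 3748 in Mettl3 KO (ratio 1.22). Gsn and Mfap5 lost their calls with the atrial index (0.13 and 0.54, adjusted p = 0.247 and 0.106), and Gsn also without any of 4 single libraries (adjusted p 0.0638 to 0.0684). Of 8 activated fibroblast markers 6 were called higher (Postn, Comp, Meox1, Cilp, Ltbp2 and Tnc), with a sum of 672 to 832 in WT and 1144 to 1658 in Mettl3 KO (ratio 2.07). The definers of activation Cthrc1, at most 7 in any library, and Fap, at 76.3 ± 5.38 and 73.8 ± 3.59, did not pass. The fibrillar sum, at 1.28, lay between both ratios, and the part of fibroblast number or state in the collagen values was not tested.

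Of 8 endothelial markers 4 were called lower (Cdh5, Kdr, Flt1 and Tie1), and their sum ran from 4985 to 5171 in WT and from 4299 to 4716 in Mettl3 KO (ratio 0.888). With the atrial index Kdr (-0.20, adjusted p = 0.0881), Tie1 (-0.29, adjusted p = 0.0850) and Flt1 (-0.10, adjusted p = 0.475) did not pass. Flt1 was also lost without any library but WT replicate 1 (adjusted p 0.0551 to 0.145) and with the replicate block (0.0641), and Cdh5 without WT replicate 2 (0.0598) or Mettl3 KO replicate 3 (0.0626). Of 8 smooth muscle and pericyte markers, 1 was called lower (Notch3, -0.31 and adjusted p = 0.126 with the atrial index), with sums of 2845 to 3066 and 2691 to 2955. The defining cardiomyocyte genes were high in all libraries, with Myh6 between 4882 and 5613, and of 6 such markers 1 was called lower (Ryr2, not called with the atrial index). Of 4 epicardial markers Upk3b and Lrrn4 were called higher, and the list summed to 67 to 106 in WT and 86 to 137 in Mettl3 KO. Neither passed with the atrial index (Upk3b 0.25, adjusted p = 0.862; Lrrn4 0.59, adjusted p = 0.562). Upk3b was also lost without Mettl3 KO replicate 3 or 4 (adjusted p 0.0607 to 0.0927), and Lrrn4 without these or WT replicate 2 or 3 (0.0749 to 0.121). The tested markers of Schwann cells (4), macrophages (5) and valve or cartilage-like cells (3) held no call, and the cartilage proteoglycan Acan was at most 2 in any library. The 4 atrial markers were called higher, with sums of 150, 141, 17 and 137 in WT and of 146, 563, 564 and 911 in Mettl3 KO. Myl7 and Myl4 were lost without any of Mettl3 KO replicates 2 to 4 (adjusted p 0.0562 to 0.117), and Bmp10 with voom (0.490 to 0.543). Bmp10, known in the adult heart from the atria, was at 0 in all WT libraries and in Mettl3 KO replicate 1.

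**Figure D3:**
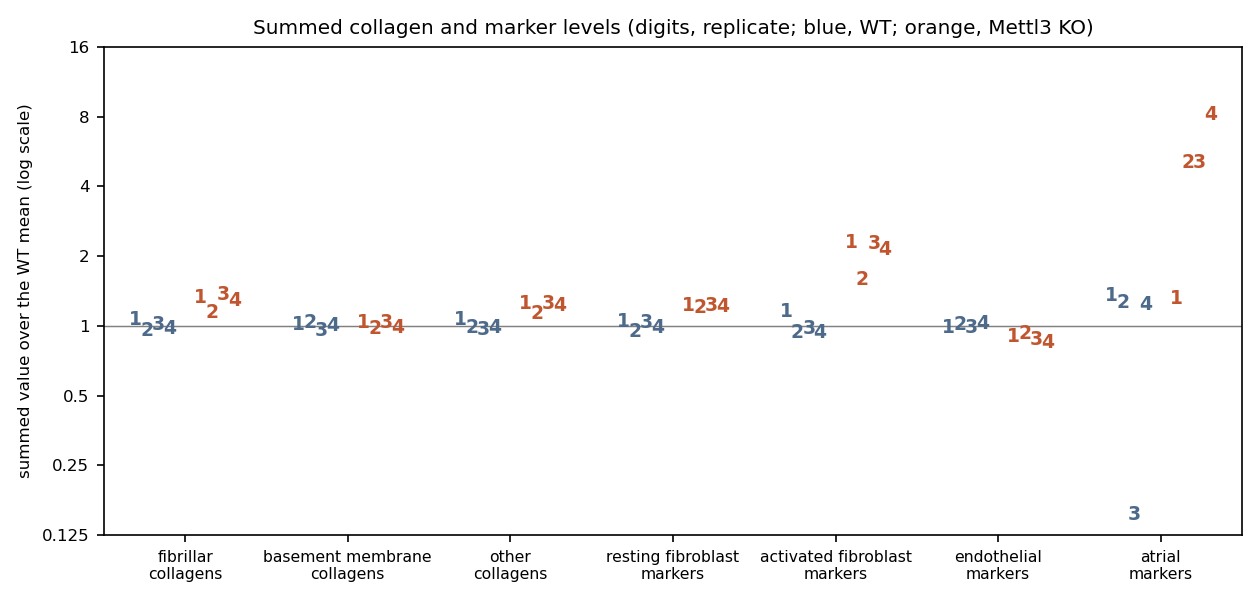
Summed normalized read counts per library divided by the WT mean (y axis, log scale) for the 3 collagen classes and 4 marker lists, with digits giving the replicate (blue WT, orange Mettl3 KO). The Mettl3 KO libraries lie above WT for the fibrillar and other collagens and both fibroblast lists, overlap with WT for the basement membrane, and lie below WT for the endothelial list, while Mettl3 KO replicate 1 has an atrial level within the WT range.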

How the data were processed

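RNA-seq of 4 WT and 4 Mettl3 KO heart samples was used. Total RNA (1 µg per library) had been sequenced as stranded single-end reads of 72 bases. The authors trimmed reads with Trimmomatic 0.39, aligned them with STAR 2.7.11a to mm39 (Ensembl 109), removed duplicates with Picard 3.1.1 and also multi-mapping, ribosomal and mitochondrial reads, counted by strand over exons with featureCounts 2.0.4 and normalized with DESeq2 1.36.0. Duplicate removal lowers abundant short transcripts most. The deposited values are a score, normalized counts rounded to whole numbers, so no count model was fitted. For each library the scaling factor (0.927 to 1.11) was recovered from the steps of the low values. On 6 simulated libraries its largest error was 3e-06.

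Genes with a mean of at least 1 (20313) were put on a log2(value + 1) scale. Genotype was fitted alone with limma 3.58.1 (R 4.3.3), letting the variance follow the mean. Tests were two-sided with Benjamini-Hochberg adjustment over all genes at a threshold of 0.05. This scale understates the change of low genes. Tested on simulated data with 200 genes changed 2-fold, the fit recovered 61.0% of them, and 94.0% of those with a mean of at least 20. Chain ratios were tested with exact permutation in SciPy 1.17.1. The labels number the samples without saying that each is a separate animal, so p-values measure the spread between these samples, which may be technical.

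Exon lengths and coding sequences came from GENCODE M21 (mm10), matched by gene ID for all 42 chains and 95.5% of genes, and gene positions from the table (mm39). Coordinates of the builds were not converted. The chains and lists were chosen with earlier results of these data known. Named were the called chains, the chains of types I, III, IV, V and VI, and the 3 largest uncalled changes at a mean of at least 10. Of the other lists those called were named, and other genes were added after their values were seen. Alternatives were to change the scaling, filter or pseudocount, to use voom, to block by replicate number, to add an atrial index as a covariate and to leave out each library in turn. Mettl3 KO replicate 1 against WT was chosen after seeing the data.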

Additional observations from a re-analysis of the deposited data

Results flagged for a closer look

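In 5 of 86 groups of 4 libraries (each of the 40 tested chains and the 3 class sums, in each genotype), the highest library stood apart from the other 3, with a gap to the nearest of them, divided by the group's range, above Dixon's critical value. At a chance of 1 in 20, 4.3 groups would be marked. Col27a1 was at 91 in Mettl3 KO replicate 1 and at 75 to 77 in the others (0.875), and Col8a2 was at 12 in WT replicate 1 and at 5 to 6 in the others (0.857). The remaining 3 were differences of a few reads. Col2a1 was at 7 in Mettl3 KO replicate 4 and at 0 to 1 in the others (0.857), Col24a1 at 3 in WT replicate 1 and at 1 in the others (1), and Col9a2 at 2 in WT replicate 1 and at 0 in the others (1).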

How the results depend on the processing

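The count of called chains was 16 or 17 under other scalings, voom, filters and pseudocounts, and 13 to 17 with a library left out (fibrillar 4 to 5, basement membrane 2 to 3, other 6 to 9). With the atrial index as a covariate it fell to 7, with 0 in the basement membrane and 2 among the other chains. This index differs between the groups, and the cause was not tested. The share of all genes called with the index is not given here, so the fall was not compared with that of all genes. Calls of Col1a1, Col1a2, Col3a1, Col5a2, Col14a1 and Col8a1 held under all 18 alternatives. Biosynthesis genes called were 8 to 10 and receptor genes 2 to 3 with a library left out. The replicate numbers did not pair the samples (correlations 0.0672, 0.0335, -0.0238 and 0.0619), and the replicate block gave 17 chains, all shared, and of the list genes named it ended the calls of Mia3 (adjusted p = 0.0686) and Flt1 (0.0641). The log2 ratio of Col4a1 to Col4a2 changed sign when Mettl3 KO replicate 1 was left out, and ran from -0.0172 to 0.0047 with a library left out. Uncalled chains changed sign as well, with Col6a6 at -0.14 with the atrial index, -0.0021 without Mettl3 KO replicate 3 (to 0.17 without other libraries) and -0.28 in Mettl3 KO replicate 1 alone, and Col4a2 at 0.035 in that library. Myl4 (-0.37) and Myl7 (-0.77), which are part of the index, reversed with it. The other chain ratios kept their sign but not always their size, with log2 differences of -0.062 to -0.015 for Col1a1/Col1a2, -0.074 to -0.018 for Col1a1/Col3a1, -0.18 to -0.05 for Col3a1/Col5a2 and 0.060 to 0.15 for Col4a3/Col4a4. The class sum ratios kept their direction, except that of the basement membrane, which at 0.99 to 1.02 lay on both sides of 1. Chains below about 10 normalized read counts rest on few reads, so a change in them may have gone undetected.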
